A study of Homo sapiens with 6 samples.

Results

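The genes described here encode the enzymes that remove acetyl groups from lysine (erasers), the enzymes that add them (writers) and proteins of the bromodomain, BRPF and ING families that bind modified histones (readers). They were chosen by symbol from the deposited count table, as all HDAC genes, SIRT1 to SIRT7, the KAT genes, the numbered BRD genes with BRDT, NCOA1 to NCOA3, ING1 to ING5, BRPF1, BRPF3, EP300, CREBBP, HAT1, NAA60 and TAF1, without CLOCK. The rule found 48 of 25343 genes, of which 18 were erasers, 15 writers and 15 readers. The cells were parental A375, an established line of human malignant melanoma cells. A group of 3 libraries came from cells given 50 nM panobinostat for 24 h, and a group of 3 libraries from cells given the same volume of PBS, called vehicle here, for the same time. RNA was measured by bulk sequencing. Nothing in the labels says whether the libraries of a group came from separate cultures, and a p-value here weighs a difference against the scatter among libraries, possibly a technical one, and not against variation among cultures.

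Histone lysines carry acetyl groups that loosen the hold of histones on DNA and that serve as docking sites for bromodomains. The zinc-dependent histone deacetylases (HDAC1 to HDAC11) remove the groups and are the enzymes that panobinostat, a hydroxamate, inhibits. Sirtuins carry out the same reaction with NAD and do not use zinc. Writers include CBP and p300, the GNAT enzymes and the MYST enzymes, most of which work inside large complexes with reader subunits. The data below are levels of mRNA, not of enzyme activity or of acetylation.

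Library totals were 32293283 to 36201208 counts with panobinostat and 34738362 to 38944399 counts in vehicle. At that depth 3 counts in a library equal 0.077 to 0.0929 CPM (the count divided by the TMM-scaled library size). Among 10 markers of the melanocyte lineage the summed level was 704 to 775 CPM with panobinostat and 1905 to 2043 CPM in vehicle, and MLANA and TYR had 0 counts in every library. ERBB3, the largest part of the vehicle sum, averaged 119.6 CPM with panobinostat and 1020 CPM in vehicle. SOX10 averaged 368 CPM with panobinostat and 813 CPM in vehicle, and PMEL 194 CPM with panobinostat and 0.628 CPM in vehicle. Summed markers of other cell types were higher with panobinostat, with 91.3 to 94.5 CPM against 39.9 to 44.6 CPM in vehicle for 5 leukocyte genes and 75.2 to 78.8 CPM against 13.3 to 14.1 CPM in vehicle for 5 fibroblast genes. Single markers differed in direction: COL1A1 averaged 56.1 CPM with panobinostat and 1 CPM in vehicle, PDGFRA 5.95 CPM with panobinostat and 10.3 CPM in vehicle, and the leukocyte gene LYZ 3.02 CPM with panobinostat and 5.17 CPM in vehicle. For 5 epithelial genes the sum was 325 to 344 CPM with panobinostat and 166 to 174 CPM in vehicle, and for 4 endothelial genes 18.4 to 18.8 CPM with panobinostat and 9.06 to 10.4 CPM in vehicle. KRT18 made up most of the epithelial sum, at 302 CPM with panobinostat and 158 CPM in vehicle. CD68 made up most of the leukocyte sum, and the leukocyte marker PTPRC and the epithelial marker CDH1 had 0 counts in the vehicle libraries. In bulk RNA a change in the number of cells of a type and a change in RNA per cell cannot be told apart, and the part of these genes in the results below was not tested.

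With panobinostat, most writers and readers were lower than in vehicle, while the erasers were divided, with more genes higher than lower. A gene was called higher or lower where edgeR's quasi-likelihood test, adjusted over all 15499 genes tested by the method of Benjamini and Hochberg, gave an adjusted p under 0.05. Of 47 members tested 11 were higher (23.4%) and 27 lower (57.4%). Over all genes tested 82.8% were called, 41.8% higher and 41.0% lower. The share of members called, 80.9%, lay near that background, and the difference from it was in the direction of the calls. Of the erasers 9 of 18 were higher and 5 lower. Of the writers 2 of 15 were higher and 12 lower. Of the readers 0 of 14 tested were higher and 10 lower, and with upper quartile scaling BRPF1 and ING2 were called higher. Median log2 fold changes were 0.07 for erasers, -0.56 for writers and -0.77 for readers, beside 0.01 for all genes tested. A change of 1.5-fold or more was called in the upward direction for 5 members and downward for 16, against 27.6% and 23.0% of all genes tested. Groups did not overlap for 39 of 47 members (83.0%), against 83.4% of all genes tested. HDAC5, HDAC8, SIRT5, EP300, BRPF1, ING1 and ING2 were among the genes whose groups overlapped, and for every other tested member described below all 3 panobinostat libraries lay on one side of all 3 vehicle libraries.

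**Figure D1:**
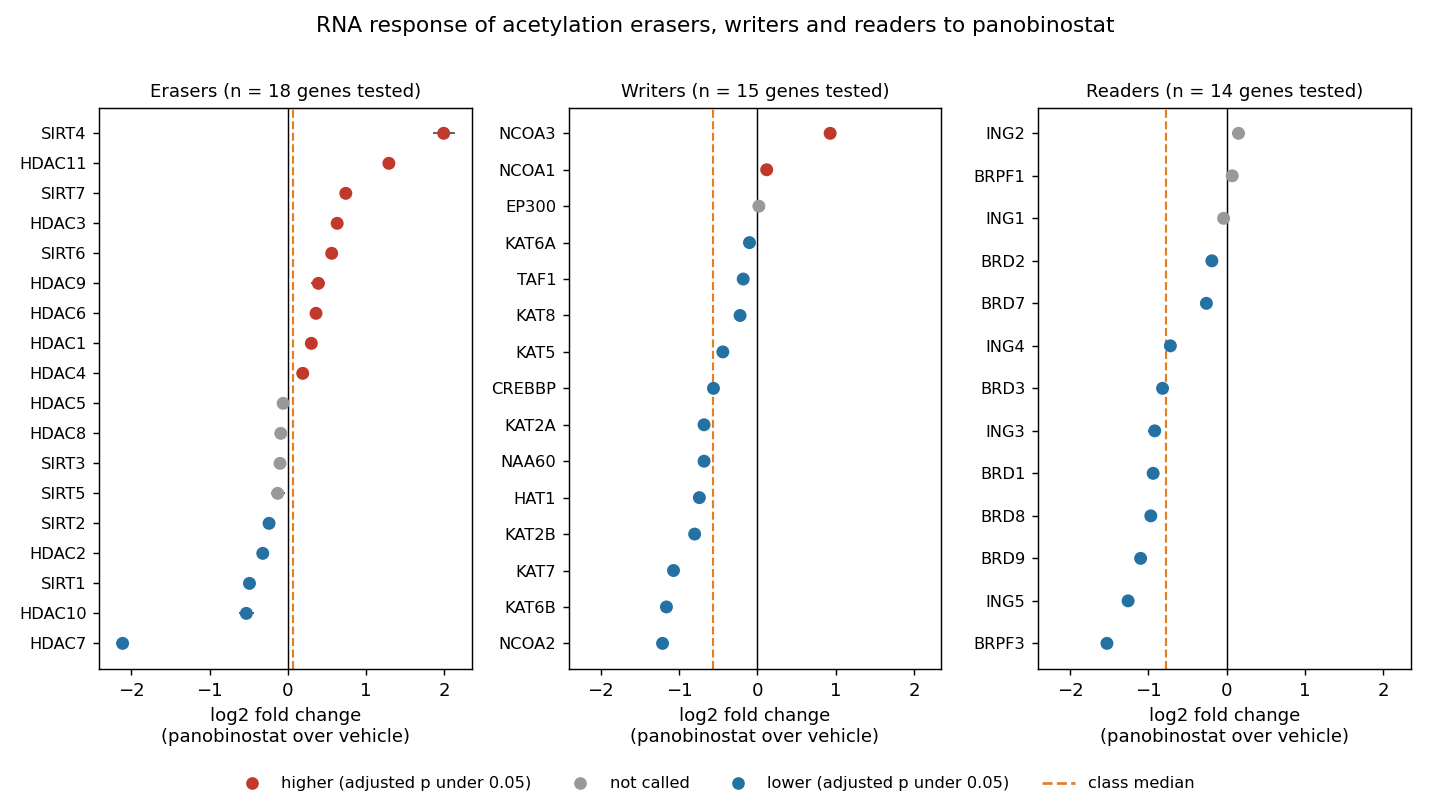
Log2 fold change (x axis, panobinostat over vehicle) of 18 erasers, 15 writers and 13 of the 14 readers tested, with points coloured by call, bars for the SE of the edgeR fit and a dashed line at the class median. Of the 14 readers tested 10 are lower and 0 higher, of 15 writers 12 are lower, and of 18 erasers 9 are higher. Over all genes tested 41.8% are higher and 41.0% lower.

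The direction of small changes depended on the scaling. Upper quartile scaling raised the log2 fold change of the median gene by 0.12 relative to the reported TMM scaling. Total RNA per cell cannot be read from these libraries, whose spike-in controls hold 0 counts, and fewer transcripts per cell cannot be told apart from a smaller share of a larger total. Balances between related genes within a library, given further below, do not depend on the scaling.

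Promoters of the genes with the largest called change in each direction of each class, among members with a single start in the RefSeq table, show what kind of upstream sequence these genes have. No reader was called higher. The 250 bases before the start are given 5′ to 3′ on the gene's strand, from RefSeq on GRCh38.p14, with GC boxes (GGGCGG or its reverse complement CCGCCC) in capitals.
HDAC11, chr3:13480056-13480305, plus strand: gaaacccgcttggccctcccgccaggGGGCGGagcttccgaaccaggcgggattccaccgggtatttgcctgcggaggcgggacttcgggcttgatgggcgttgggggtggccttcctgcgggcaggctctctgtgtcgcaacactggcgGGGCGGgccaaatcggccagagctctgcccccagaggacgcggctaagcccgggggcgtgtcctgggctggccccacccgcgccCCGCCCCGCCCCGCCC
HDAC7, chr12:47819904-47820153, minus strand: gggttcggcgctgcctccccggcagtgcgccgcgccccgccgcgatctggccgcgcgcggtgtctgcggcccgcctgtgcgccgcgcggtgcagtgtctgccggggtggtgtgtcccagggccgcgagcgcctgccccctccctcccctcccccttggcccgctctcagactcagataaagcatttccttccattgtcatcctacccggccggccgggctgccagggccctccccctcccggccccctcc
NCOA3, chr20:47501637-47501886, plus strand: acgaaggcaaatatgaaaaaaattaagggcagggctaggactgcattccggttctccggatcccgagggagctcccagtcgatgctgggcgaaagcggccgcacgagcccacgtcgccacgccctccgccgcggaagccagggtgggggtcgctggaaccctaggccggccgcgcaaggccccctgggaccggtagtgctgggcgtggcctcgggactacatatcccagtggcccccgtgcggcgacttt
KAT7, chr17:49788431-49788680, plus strand: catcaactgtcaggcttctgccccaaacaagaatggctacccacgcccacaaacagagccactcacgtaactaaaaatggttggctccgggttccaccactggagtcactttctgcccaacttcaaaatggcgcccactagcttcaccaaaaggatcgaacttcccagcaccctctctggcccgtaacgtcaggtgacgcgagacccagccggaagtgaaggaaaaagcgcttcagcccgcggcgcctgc
BRPF3, chr6:36196494-36196743, plus strand: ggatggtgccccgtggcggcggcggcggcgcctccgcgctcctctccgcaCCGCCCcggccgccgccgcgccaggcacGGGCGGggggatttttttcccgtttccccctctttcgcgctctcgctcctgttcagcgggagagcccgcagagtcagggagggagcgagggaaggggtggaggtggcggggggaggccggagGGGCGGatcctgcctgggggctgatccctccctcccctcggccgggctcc
HDAC11 and NCOA3 were higher with panobinostat, and HDAC7, KAT7 and BRPF3 lower. Base composition did not separate the directions, with 73.6% and 66.4% G and C in HDAC11 and NCOA3 and 75.6%, 56.4% and 76% in HDAC7, KAT7 and BRPF3. GC boxes numbered 5 in HDAC11 and 3 in BRPF3, with 0 in HDAC7, NCOA3 and KAT7. RefSeq windows were matched for 41 members, with 73 windows in all, some overlapping. A GC box on either strand was found in 60.3% of them (14 of 29 for erasers, 10 of 19 for writers and 20 of 25 for readers) and in 42.6% of 35116 windows of all genes. The ETS core CCGGAAG, on either strand, was found in 20.5% of members' windows and 8.52% of all windows. TATAAA was found in 5.48% of members' windows and 10.7% of all windows, and CCAAT in 26% of members' windows and 32% of all windows, again on either strand. These are matches of letters and not binding sites. HDAC5, SIRT7, KAT6A, KAT8, NCOA2 and ING3 were among the 7 members with no window in the table.

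Of the zinc-dependent deacetylases, the enzyme family that the drug targets, 6 of 11 were higher (54.5%) and 3 lower (27.3%). Over all genes tested 41.8% were higher and 41.0% lower, and with 11 genes the difference from those shares rests on few genes. Class I holds the nuclear enzymes HDAC1, HDAC2 and HDAC3 and the more divergent HDAC8. HDAC1 had 239, 243 and 249 CPM with panobinostat, against 201, 195 and 197 CPM in vehicle. HDAC2, which shares the SIN3, NuRD and CoREST complexes with HDAC1, had 128, 131 and 134 CPM with panobinostat, against 161, 165 and 167 CPM in vehicle. The groups did not overlap for either gene, and the directions were opposite: HDAC1 rose, with a log2 fold change of 0.30 ± 0.04 (SE, edgeR adjusted p = 6.29e-07), and HDAC2 fell, with -0.32 ± 0.04 (edgeR adjusted p = 4.42e-07). HDAC3, the catalytic subunit of the NCoR and SMRT corepressors, had 99.5, 101 and 105 CPM with panobinostat, against 65.4, 68.0 and 63.3 CPM in vehicle. It was the class I gene with the largest change, 1.55-fold higher (edgeR adjusted p = 4.38e-10). HDAC8 had 30.8, 31.0 and 29.4 CPM with panobinostat and 32.3, 31.0 and 33.9 CPM in vehicle. Its groups overlapped and it was not called (log2 difference -0.09 ± 0.06).

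Class IIa enzymes shuttle between nucleus and cytoplasm and have little deacetylase activity of their own. HDAC7 had 7.29, 7.71 and 7.15 CPM with panobinostat (231 to 282 counts), against 35.1, 31.4 and 29.1 CPM in vehicle (1082 to 1361 counts). It was 4.31-fold lower, the most negative change among the 47 members tested (log2 fold change -2.11 ± 0.08, edgeR adjusted p = 1.21e-13). The other genes of the class did not follow it. HDAC4 had 46.6, 40.7 and 44.1 CPM with panobinostat, against 39.1, 39.7 and 36.4 CPM in vehicle, a rise of 0.19 ± 0.06 (edgeR adjusted p = 0.00647) that was not called without panobinostat replicate 1 (0.14). HDAC9 had 11, 10 and 9.93 CPM with panobinostat, against 7.62, 7.16 and 8.84 CPM in vehicle, and rose 1.31-fold. HDAC5, the most abundant of the class per kb of transcript, had 67.0, 67.1 and 68.5 CPM with panobinostat and 74.8, 70.8 and 65.4 CPM in vehicle. Vehicle replicate 3 lay below all panobinostat libraries, and HDAC5 was not called (-0.06 ± 0.05), although it was called lower without that library (-0.13).

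The class IIb pair also divided. HDAC6, a cytoplasmic deacetylase of tubulin, had 34.2, 35.8 and 35.8 CPM with panobinostat, against 28.3, 28.7 and 25.7 CPM in vehicle, and rose 1.28-fold (edgeR adjusted p = 2.17e-05). HDAC10, a polyamine deacetylase, had 6.66, 7.90 and 8.17 CPM with panobinostat (241 to 289 counts), against 12.6, 10.1 and 9.87 CPM in vehicle (350 to 489 counts), and was 1.44-fold lower (edgeR adjusted p = 0.000225). HDAC11, the only class IV enzyme, removes long acyl chains. It had 11.4, 11.8 and 11.8 CPM with panobinostat (382 to 431 counts), against 5.01, 4.84 and 4.48 CPM in vehicle (167 to 194 counts). Every panobinostat library lay above 11 CPM and every vehicle library near 5 CPM, a 2.44-fold rise (log2 fold change 1.29 ± 0.08, edgeR adjusted p = 1.54e-10).

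**Figure D2:**
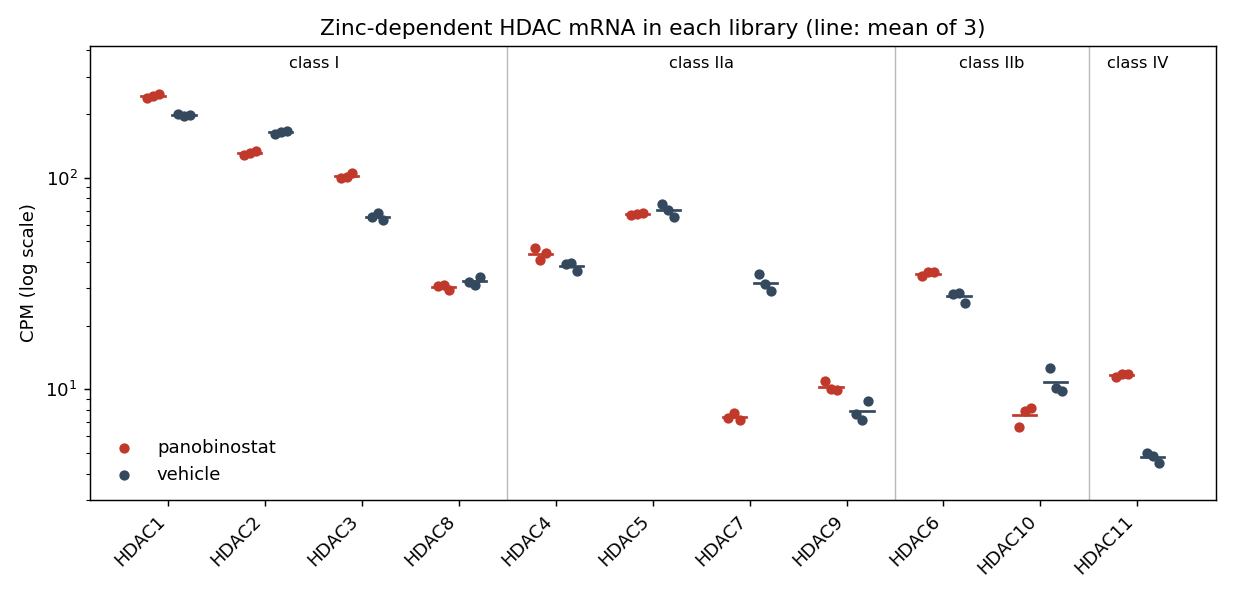
Level of each zinc-dependent HDAC mRNA (y axis, CPM on a log scale) in the 3 panobinostat libraries and the 3 vehicle libraries, with a line at the mean. HDAC7 stands at 7.15 to 7.71 CPM with panobinostat and 29.1 to 35.1 CPM in vehicle, and HDAC11 at 11.4 to 11.8 CPM with panobinostat and 4.48 to 5.01 CPM in vehicle.

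Levels of different genes were compared per kb of coding transcript, taking the median length of a gene's coding transcripts in GENCODE. Summed over the 11 HDAC genes, the level was 295 ± 5.21 CPM per kb with panobinostat and 272 ± 2.74 CPM per kb in vehicle (SD, n = 3 each), a ratio of 1.08, or 1.18 with the longest transcript of each gene. HDAC1 held 38.9% ± 0.140 of that sum with panobinostat and 34.3% ± 0.325 in vehicle. HDAC2 held 21.3% ± 0.0828 with panobinostat and 29% ± 0.830 in vehicle, and HDAC3 held 17.6% ± 0.135 with panobinostat and 12.3% ± 0.421 in vehicle. The levels of HDAC2 and HDAC8 depend on which transcript is used: with the longest one HDAC2 held 6.01% with panobinostat and 8.88% in vehicle, a smaller share than that of HDAC3 (23.5% with panobinostat and 17.9% in vehicle).

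Of the 7 sirtuins 3 were higher (42.9%) and 2 lower (28.6%), beside 41.8% higher and 41.0% lower over all genes tested. SIRT4, a mitochondrial enzyme, had 4.42, 4.70 and 4.77 CPM with panobinostat (154 to 172 counts), against 1.32, 1.19 and 0.985 CPM in vehicle (38 to 51 counts). It rose 3.97-fold, the most positive change of the members tested, and its vehicle level was the lowest among them (log2 fold change 1.99 ± 0.14, edgeR adjusted p = 4.64e-10). SIRT7, a nucleolar enzyme, had 19.0, 19.9 and 19.2 CPM with panobinostat, against 13, 10.6 and 11.2 CPM in vehicle, and rose 1.67-fold (edgeR adjusted p = 8.45e-08). SIRT6, a nuclear enzyme of DNA repair and telomeric chromatin, rose 1.47-fold to 21.9 ± 0.689 CPM, against 14.9 ± 1.13 CPM in vehicle. In the opposite direction, SIRT1, the nuclear deacetylase of histones and p53, stood at 27.3 ± 1.53 CPM with panobinostat and 38.2 ± 0.953 CPM in vehicle, 1.40-fold lower (edgeR adjusted p = 4.35e-07). SIRT2, mainly cytoplasmic, stood at 17.4 ± 0.629 CPM with panobinostat and 20.6 ± 1.05 CPM in vehicle, a fall whose call was lost with upper quartile scaling (-0.12). The mitochondrial SIRT3 and SIRT5 were not called, with log2 differences of -0.10 ± 0.07 and -0.13 ± 0.09. SIRT3 overlaps PSMD13 on the opposite strand over 7.78% of its exons. The sources used here do not give the strand setting of the counting, so reads of overlapping genes may be shared.

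Writers were lower in all but 3 cases, while 41.0% of all genes tested were lower. CREBBP and EP300 encode CBP and p300, paired coactivators that acetylate many histone sites. CREBBP stood at 93.0 ± 2.51 CPM with panobinostat and 137 ± 3.10 CPM in vehicle, 1.48-fold lower (edgeR adjusted p = 6.81e-10). EP300 stood at 124 ± 3.74 CPM with panobinostat and 122 ± 1.5 CPM in vehicle, and its groups overlapped. The log2 difference of EP300 was 0.02 ± 0.04, not called here, but called higher with a filter of 5 CPM (0.12) and under upper quartile scaling (0.14). The antisense gene EP300-AS1, looked up after the values of EP300 were seen, had 114 to 149 counts per library with panobinostat and 25 to 34 counts in vehicle.

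The GNAT enzymes KAT2A (GCN5) and KAT2B (PCAF), alternative catalytic subunits of SAGA and ATAC, were both lower. KAT2A had 22.1, 24.3 and 22 CPM with panobinostat, against 39.8, 36.6 and 33.2 CPM in vehicle, 1.60-fold lower. KAT2B had 31.9, 32.4 and 31.9 CPM with panobinostat, against 55.3, 56.1 and 56.4 CPM in vehicle, 1.75-fold lower (edgeR adjusted p = 4.98e-11). All 5 MYST genes were called lower, by amounts that differed widely. Over all genes tested 41.0% were called lower. KAT6B (MORF) had 26.8, 25.8 and 27.1 CPM with panobinostat, against 58.3, 58.4 and 60.8 CPM in vehicle, 2.23-fold lower. KAT7 (HBO1), a writer of H3 and H4 acetylation that also acts at replication origins, had 38.6, 40.0 and 40.5 CPM with panobinostat, against 83.3, 83.3 and 82.6 CPM in vehicle. It was 2.09-fold lower, with replicate SDs of 0.997 CPM with panobinostat and 0.431 CPM in vehicle (log2 fold change -1.07 ± 0.04, edgeR adjusted p = 4.82e-13). KAT5 (TIP60) was lower by a log2 change of -0.44 ± 0.06 and KAT8 (MOF), the writer of H4 lysine 16 acetylation, by -0.22 ± 0.06. KAT5 overlaps RNASEH2C on the opposite strand over 32.2% of its exons, and RNASEH2C itself was not called (0.02 ± 0.07). The fall of KAT8 was not called with upper quartile scaling (-0.10) or the 5 CPM filter (-0.13). KAT6A (MOZ), the close relative of KAT6B, stood at 115 ± 3.05 CPM with panobinostat and 123 ± 2.31 CPM in vehicle. Its change of -0.10 ± 0.04 passed narrowly (edgeR adjusted p = 0.0254), did not pass without panobinostat replicate 2 (-0.08), with RLE scaling (-0.08), DESeq2 (-0.08) or the 5 CPM filter (-0.01), and turned to 0.02 with upper quartile scaling.

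HAT1, which acetylates newly made H4 before it is placed on DNA, had 40.8, 44.5 and 44.1 CPM with panobinostat, against 69.4, 72.2 and 74.7 CPM in vehicle, 1.67-fold lower. NAA60, a Golgi enzyme that acetylates protein N termini and was also described as a histone acetyltransferase, had 24.4, 24.8 and 27.7 CPM with panobinostat, against 42.0, 43.1 and 37.9 CPM in vehicle, 1.60-fold lower. TAF1, the largest subunit of TFIID and a carrier of a double bromodomain, was slightly lower, at 147 ± 4.09 CPM with panobinostat and 167 ± 3.23 CPM in vehicle, a call lost with upper quartile scaling (-0.06). Its near-identical copy TAF1L had 3 to 10 counts per library with panobinostat and 5 to 9 in vehicle. The p160 coactivators of nuclear receptors gave the widest split among writers. NCOA3 had 158, 162 and 161 CPM with panobinostat, against 85.1, 83.4 and 84.6 CPM in vehicle, and was the writer that rose most, 1.90-fold (log2 fold change 0.93 ± 0.04, edgeR adjusted p = 3.33e-13). NCOA2 had 19.0, 16.5 and 16.9 CPM with panobinostat, against 40.5, 40.1 and 40.5 CPM in vehicle, the writer that fell most, 2.31-fold lower (log2 fold change -1.21 ± 0.06, edgeR adjusted p = 6.52e-12). NCOA1 stood at 44.8 ± 1.99 CPM with panobinostat and 41.1 ± 1.08 CPM in vehicle. Its rise of 0.12 ± 0.05 was not called without panobinostat replicate 1 (0.12), panobinostat replicate 3 (0.09), vehicle replicate 1 (0.09), vehicle replicate 2 (0.13) or vehicle replicate 3 (0.10). Of the 5 writers that carry a bromodomain themselves (EP300, CREBBP, KAT2A, KAT2B and TAF1) 4 were lower and 0 higher. Of the other 10 writers 8 were lower and 2 higher, with a median of -0.56 in both sets. Over all genes tested 41.0% were lower and 41.8% higher, with a median of 0.01.

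**Figure D3:**
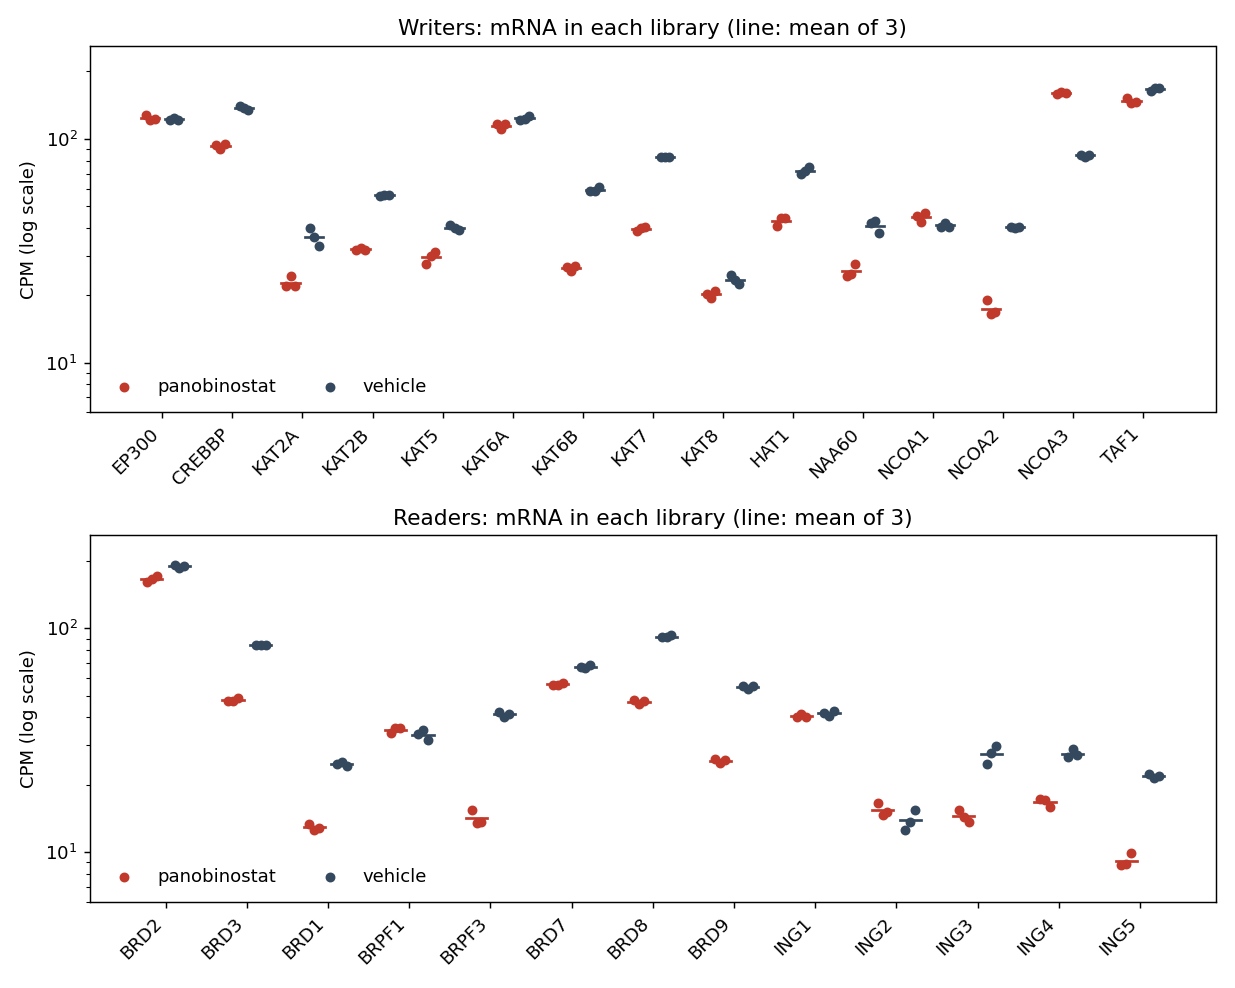
Level of 15 writer and 13 reader mRNAs (y axis, CPM on a log scale) in the 3 panobinostat and the 3 vehicle libraries, with a line at the mean. NCOA3 lies above vehicle, at 158 to 162 CPM against 83.4 to 85.1 CPM, and BRPF3 below it, at 13.5 to 15.5 CPM against 40.2 to 42.2 CPM.

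Readers of the BET family bind acetylated histones with paired bromodomains and recruit the elongation machinery. BRD3 had 47.4, 47.1 and 49.0 CPM with panobinostat, against 84.6, 84.5 and 83.8 CPM in vehicle, 1.76-fold lower (edgeR adjusted p = 1.17e-11). BRD2 was the most abundant reader per kb in both groups, at 47.8 ± 1.42 CPM per kb with panobinostat and 54.6 ± 0.746 CPM per kb in vehicle (SD, n = 3 each). BRD2 stood at 166 ± 4.91 CPM with panobinostat and 189 ± 2.58 CPM in vehicle, a log2 change of -0.19 ± 0.04 whose call was lost with upper quartile scaling (-0.07). BRDT, the testis member, had 1 count in a panobinostat library and 1 in a vehicle library and was not tested.

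BRD1, BRPF1 and BRPF3 are scaffolds that bind MYST enzymes to chromatin. BRPF3 had 15.5, 13.5 and 13.6 CPM with panobinostat, against 42.2, 40.2 and 41.3 CPM in vehicle. It was 2.90-fold lower, the reader that fell most (log2 fold change -1.53 ± 0.06, edgeR adjusted p = 4.33e-13). BRD1 had 13.4, 12.6 and 12.8 CPM with panobinostat, against 24.8, 25.4 and 24.3 CPM in vehicle, 1.92-fold lower. BRPF1 stood at 35.2 ± 1.01 CPM with panobinostat and 33.5 ± 1.84 CPM in vehicle and was not called (0.07 ± 0.06). BRPF1 was called higher under the 5 CPM filter (0.17) and under upper quartile scaling (0.19).

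The remaining bromodomain genes are subunits of remodelling and acetyltransferase complexes. BRD9, of a noncanonical SWI/SNF complex, had 26.1, 25.1 and 25.7 CPM with panobinostat, against 55.4, 53.8 and 55.4 CPM in vehicle, 2.14-fold lower. BRD8, of the TIP60 complex, had 47.6, 45.7 and 47.1 CPM with panobinostat, against 91.3, 91.4 and 92.9 CPM in vehicle, 1.96-fold lower. BRD7, of the PBAF form of SWI/SNF, changed less, to 56.3 ± 0.769 CPM with panobinostat against 67.4 ± 1.14 CPM in vehicle. BRD9 overlaps TRIP13 on the opposite strand over 7.76% of its exons and BRD7 overlaps ADCY7 over 40.6%. Both neighbours were lower with panobinostat, by log2 changes of -2.72 and -1.75, and the part of their reads in the values of BRD9 and BRD7 was not tested.

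ING proteins read methylated H3 through a PHD finger and tie deacetylase or acetyltransferase complexes to it. ING5 had 8.76, 8.83 and 9.87 CPM with panobinostat (317 to 323 counts), against 22.3, 21.5 and 22 CPM in vehicle (741 to 862 counts), 2.40-fold lower. ING3 had 15.5, 14.3 and 13.6 CPM with panobinostat, against 24.8, 27.6 and 29.8 CPM in vehicle, 1.89-fold lower. ING4 had 17.3, 17.1 and 15.9 CPM with panobinostat, against 26.5, 29 and 27.2 CPM in vehicle, 1.64-fold lower. These 3 genes encode subunits of acetyltransferase complexes, and their groups did not overlap. ING1 and ING2, subunits of the SIN3 deacetylase complex, were not called, with log2 differences of -0.04 ± 0.05 and 0.15 ± 0.08. ING2 was called higher without vehicle replicate 3 (0.22).

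Summed per kb, writers reached 187 ± 3.11 with panobinostat and 249 ± 1.69 in vehicle, and readers 214 ± 1.07 with panobinostat and 290.4 ± 0.999 in vehicle (CPM per kb, SD, n = 3 each). The ratios were 0.750 and 0.738, or 0.775 and 0.724 with longest transcripts, beside 1.09 (1.18) for the erasers. No test was made of these sums. HDAC1 was the most abundant member per kb in both groups, at 115 ± 2.42 with panobinostat and 93.2 ± 1.49 in vehicle. HDAC2, HDAC3 and BRD2 followed with panobinostat, and HDAC2, BRD2 and HAT1 in vehicle. With longest transcripts HDAC2 stood in place 10 in vehicle. Among the 15 writers NCOA3 was in place 2 with panobinostat and in place 10 in vehicle.

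Many members have a close relative with an overlapping role, and the balance of each pair within a library is independent of scaling. Of 20 pairs compared, 17 had ratios that did not overlap between the groups. Among single genes the groups did not overlap for 83.4% of all genes tested, and no share was computed for ratios of other genes. With 3 libraries in each group an exact two-sided permutation test cannot go below p = 0.1, and it gave that value for these 17 pairs (0.118 after Benjamini-Hochberg adjustment over the 20), so no pair could pass 0.05. The log2 ratio of HDAC1 to HDAC2 was 0.90, 0.89 and 0.89 with panobinostat, against 0.33, 0.25 and 0.24 in vehicle, a 1.54-fold shift. The ratio of KAT6A to KAT6B was 2.12, 2.11 and 2.11 with panobinostat, against 1.05, 1.07 and 1.05 in vehicle, a difference of 1.05 ± 0.01 (SE). In both pairs the shift was many times the spread within a group.

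In 2 pairs the more abundant gene by counts changed. Per kb this held with median transcript lengths but not with longest ones. In vehicle, with longest transcripts, EP300 stood at 12.8 CPM per kb against 12.7 for CREBBP, and BRPF1 at 7.07 against 6.81 for BRPF3. The log2 ratio of EP300 to CREBBP was 0.45, 0.42 and 0.38 with panobinostat, against -0.21, -0.15 and -0.14 in vehicle. For BRPF1 to BRPF3 the log2 ratio was 1.13, 1.40 and 1.39 with panobinostat, against -0.33, -0.19 and -0.38 in vehicle, a 3.05-fold shift. The largest shift was that of HDAC5 to HDAC7, whose log2 ratio averaged 3.19 ± 0.07 with panobinostat and 1.14 ± 0.05 in vehicle (SD, n = 3 each). The p160 coactivators moved apart in both directions: NCOA1 to NCOA2 shifted by 1.33 ± 0.07 and NCOA1 to NCOA3 by -0.80 ± 0.05 (SE). BRD7 to BRD9 shifted by 0.84 ± 0.02. HDAC6 to HDAC10 and HDAC3 to HDAC8 shifted by 0.87 ± 0.12 and 0.72 ± 0.08. ING4 to ING5 shifted by 0.54 ± 0.11, a difference in size between genes that were both lower. Smaller shifts without overlap were 0.25 for HDAC4 to HDAC5, -0.24 for SIRT1 to SIRT2, -0.22 for KAT5 to KAT8 and -0.19 for SIRT6 to SIRT7. In 3 pairs the groups overlapped. KAT2A to KAT2B (0.12 ± 0.09), SIRT3 to SIRT5 (0.04 ± 0.09) and ING1 to ING2 (-0.19 ± 0.10) thus showed no shift beyond the spread of the libraries.

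**Figure D4:**
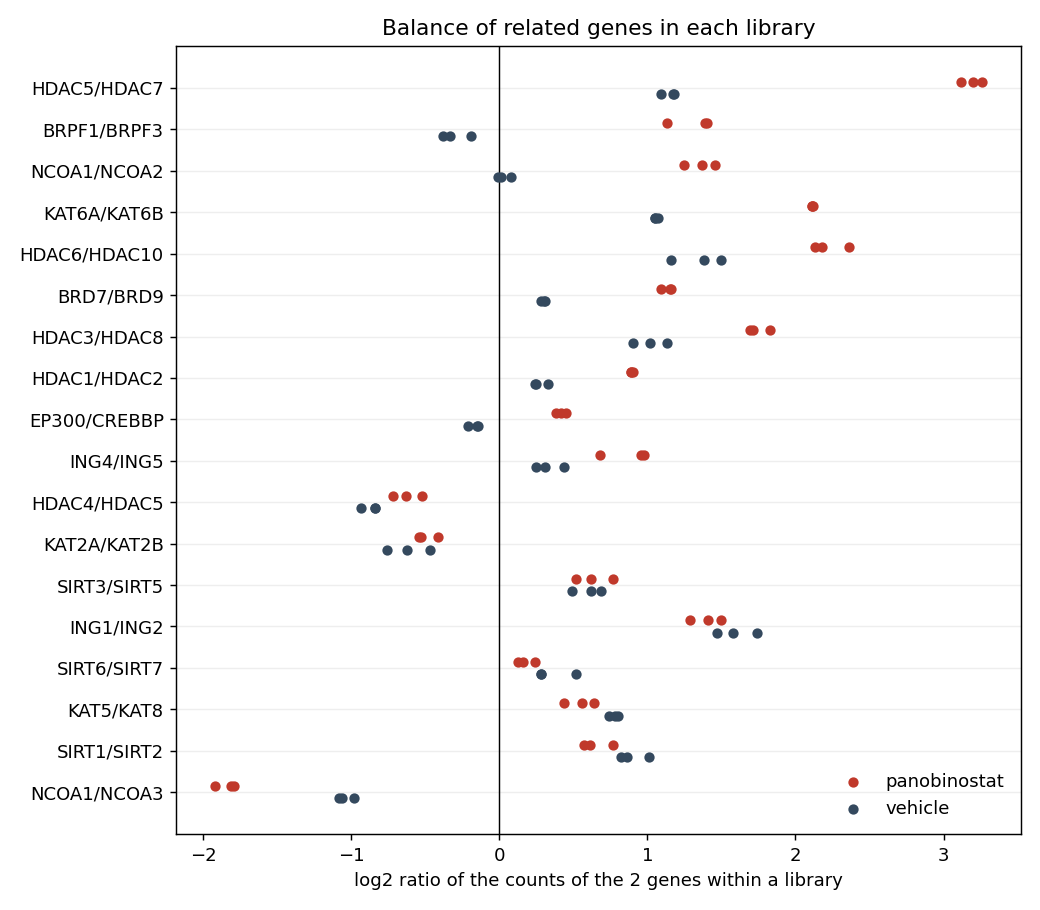
Log2 ratio of the counts of 2 related genes (x axis) in each panobinostat and vehicle library, 1 row for each of 18 pairs, ordered by the difference between the groups. The ratio of KAT6A to KAT6B lies at 2.11 to 2.12 with panobinostat and 1.05 to 1.07 in vehicle, and 15 of the 18 pairs drawn do not overlap. Single genes did not overlap for 83.4% of all genes tested.

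Grouped by the complexes they belong to, the members of the MOZ/MORF complex (KAT6A, KAT6B, BRD1, BRPF1, BRPF3 and ING5) were lower in 5 of 6 cases, with KAT6A's fall the one that turned with upper quartile scaling. The HBO1 complex shares some of these, and of its 6 members here (KAT7, ING4, ING5, BRD1, BRPF1 and BRPF3) 5 were lower. All 3 members of the TIP60 complex (KAT5, ING3 and BRD8) were lower. Members of the SIN3 complex (HDAC1, HDAC2, ING1 and ING2) were higher in 1 case and lower in 1. These counts are of few genes and stand beside 41.0% lower and 41.8% higher over all genes tested.

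Partner subunits of these complexes that are not themselves members were counted in the same way. Of 44 subunits of acetyltransferase complexes 2 were higher and 34 lower, with a median of -0.36, beside 41.8% higher, 41.0% lower and a median of 0.01 over all genes tested. JADE2, a scaffold of the HBO1 complex, stood at 11.1 ± 0.373 CPM with panobinostat and 73.0 ± 3.96 CPM in vehicle, 6.58-fold lower (edgeR adjusted p = 1.21e-16). EPC1, a scaffold of the TIP60 complex, stood at 7.34 ± 0.621 CPM with panobinostat and 22 ± 0.620 CPM in vehicle. WDR5, an adaptor of several chromatin complexes, was 2.02-fold lower. The 2 higher genes, the ATPase RUVBL2 and the SAGA subunit ENY2, changed by 0.15 and 0.11, and ENY2 was not called without panobinostat replicate 2 or 3 or without vehicle replicate 1 or 2. Under upper quartile scaling or the 5 CPM filter 6 of the 44 were higher.

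Of 35 subunits of deacetylase corepressor complexes 10 were higher (28.6%) and 15 lower (42.9%), with a median of -0.08. Over all genes tested 41.8% were higher and 41.0% lower, so the share of lower calls lay near the background. In NuRD 9 of 11 partner subunits were lower (81.8%) and 1 higher (9.09%), and in SIN3 3 of 12 were lower (25.0%) and 4 higher (33.3%). RBBP4 and RBBP7, both lower (log2 changes of -1.03 and -0.59), were counted with NuRD only, although both also belong to SIN3. The contrast between these complexes depends in part on that assignment. CHD3, a remodeller of NuRD, stood at 44.7 ± 1.89 CPM with panobinostat and 185 ± 3.06 CPM in vehicle, 4.15-fold lower (edgeR adjusted p = 6.56e-17). RBBP4, a histone chaperone of NuRD and SIN3, was 2.05-fold lower and MTA3, a NuRD scaffold, 2.40-fold lower. GPS2, a subunit of the HDAC3 corepressors, was 2.29-fold higher at 101 ± 3.35 CPM with panobinostat against 44.1 ± 0.985 CPM in vehicle. SAP30L, of SIN3, was 2.21-fold higher, and RCOR1, the scaffold of CoREST, 1.53-fold.

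Of 25 other bromodomain proteins 5 were higher and 16 lower, with a median of -0.47. The background over all genes tested was 41.8% higher and 41.0% lower, with a median of 0.01. Without panobinostat replicate 1 the higher genes of this list numbered 3. ATAD2, a bromodomain ATPase linked to replication, stood at 33.9 ± 0.250 CPM with panobinostat and 171 ± 2.76 CPM in vehicle, 5.04-fold lower (edgeR adjusted p = 8.42e-18). BAZ1A, of ISWI remodellers, was 3.52-fold lower and ZMYND8, a reader of paired histone marks, 2.45-fold lower. TRIM66, BAZ2A and BRWD1 rose, by 2.08-fold, 1.29-fold and 1.15-fold. Among 6 other acyl-lysine readers of the YEATS and double PHD families 2 were higher (33.3%) and 3 lower (50.0%), near the shares over all genes tested. MLLT3 (AF9), a YEATS reader of the super elongation complex, rose 2.03-fold, and the double PHD genes PHF10, DPF1 and DPF2 were lower by log2 changes of -1.52, -1.29 and -0.50. The other double PHD gene of the list, DPF3, went the other way, with a log2 change of 1.38. Its level was low, at 2.06 CPM with panobinostat and 0.785 CPM in vehicle.

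Of 11 enzymes that supply the cofactors of writers and sirtuins 5 were higher and 5 lower (45.5% each), near the 41.8% and 41.0% of all genes tested. ACLY and ACSS2, which make cytosolic and nuclear acetyl-CoA, were both 1.35-fold lower, and the mitochondrial ACSS1 was 2.12-fold lower. SLC25A1, the citrate carrier, rose to 73.2 ± 1.61 CPM with panobinostat, against 58.7 ± 3.52 CPM in vehicle. On the side of NAD, NMNAT2, a synthase of NAD, rose to 45.7 ± 1.81 CPM with panobinostat, against 8.32 ± 0.405 CPM in vehicle (log2 fold change 2.46 ± 0.06, edgeR adjusted p = 9.19e-16). NMRK1, a nicotinamide riboside kinase, rose 4.54-fold. NAPRT1 and NADSYN1, which act in the synthesis of NAD from nicotinic acid and were named after their values were seen, were lower, with log2 changes of -0.48 and -0.36.

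**Figure D5:**
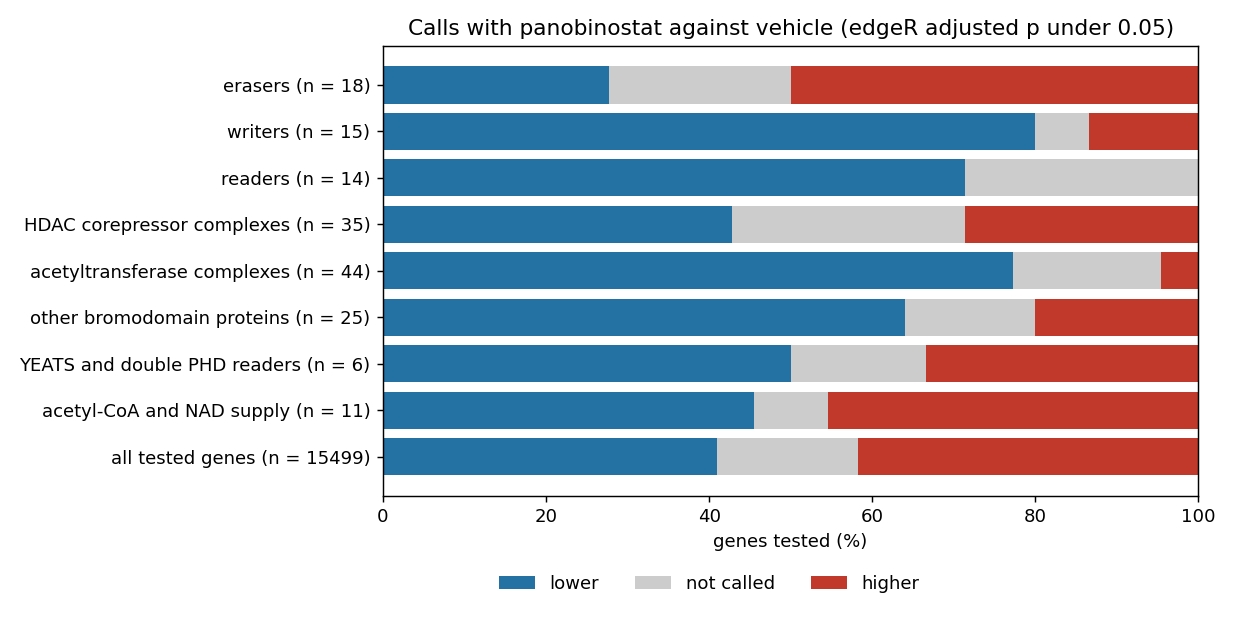
Share of tested genes (x axis, percent) called lower, not called or called higher with panobinostat, for the 3 classes, the 5 lists of related genes and all 15499 genes tested. Of 44 genes of acetyltransferase complexes 34 are lower and 2 higher, and of 15 writers 12 are lower and 2 higher. Over all genes tested 41.0% are lower and 41.8% higher.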

How the data were processed

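The authors deposited whole-number read counts per gene symbol, with no normalization. The name of the deposited table gives STAR, while its version, the genome build, the annotation and the strand rule were not given in the sources used. Columns were matched to samples by title and groups taken from the dose. Of 25435 lines, 92 spike-in lines held 0 counts and were left out. 28 symbols turned into dates (at most 0.221% of a library) were kept unnamed. Libraries of a group differed beyond sampling noise (chi-square per degree of freedom 1.902 to 9.139).

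Genes passing filterByExpr were scaled by TMM and tested with edgeR 4.0.16 (glmQLFit, robust; glmQLFTest) on group alone, in R 4.3.3, with Benjamini-Hochberg adjustment over all genes. CPM use TMM-scaled library sizes. DESeq2 1.42.0, limma-voom (limma 3.58.1), other scalings and filters, a replicate block and leaving out each library were alternatives. The steps were also run on simulated counts in which far fewer genes changed than in these data, so that run does not check the scaling here. Pair ratios used counts plus 0.5 and an exact permutation test (scipy 1.17.1). Lengths and overlaps came from the basic set of GENCODE 29, whose build may differ from the authors'. Lists were not tested as sets.

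All members and lists were chosen with earlier results of these data known. CPM per library are given for each zinc-dependent HDAC and each other member called at a log2 change of 0.58 or more, with counts as ranges for some of low level. Up to 3 called genes per direction are named from each list, at 5 CPM or more in a group. RBBP7, DPF3, NAPRT1, NADSYN1 and NAMPT were named outside this rule, after their values were seen. Intervals are SD or SE over libraries and do not cover differences between cultures. Some individual genes are counted but not reported here.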

Additional observations from a re-analysis of the deposited data

How the results depend on the processing

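Of 38 members called, 31 kept their call under every alternative that tested them, and HDAC4, SIRT2, KAT6A, KAT8, NCOA1, TAF1 and BRD2 did not. Counts over all genes stayed within 1.5 times of 6471 higher and 6355 lower, at 6327 to 6547 and 6185 to 6506 when 1 library was left out. Same-numbered libraries did not deviate together (correlations of -0.493 to -0.206). Deviations from a mean of 3 libraries must balance within a group, so this check cannot tell whether the numbers pair libraries. The fit with a replicate block called 6259 genes higher and 6150 lower. KAT6A (-0.10) and NCOA1 (0.12) were not called in that fit. Writers called higher numbered 1 in place of 2 with the replicate block and without a low-count filter, and 1 to 2 when 1 library was left out. Readers called higher numbered 2 under the 5 CPM filter and under upper quartile scaling, and 0 to 1 when 1 library was left out. With upper quartile scaling the medians were 0.19 for erasers, -0.44 for writers and -0.65 for readers. The writer median was -0.61 with no filter and -0.47 with the 5 CPM filter, which gave -0.67 for readers. Leaving out 1 library gave medians of 0.03 to 0.09 for erasers, -0.60 to -0.54 for writers and -0.80 to -0.76 for readers.

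Signs turned for members near 0. With upper quartile scaling HDAC8 was 0.03, HDAC5 0.06, SIRT3 0.02, KAT6A 0.02 and ING1 0.08, and with the 5 CPM filter HDAC8 was 0.00, HDAC5 0.04 and ING1 0.06. EP300 was -0.02 with no filter and -0.00 without panobinostat replicate 1 or vehicle replicate 1. The ratio of SIRT3 to SIRT5 was -0.03 and -0.02 without panobinostat replicate 3 and vehicle replicate 3. The cause was not tested. Members' counts were 154 to 8885 per library with panobinostat and 38 to 7804 in vehicle among those tested, so SIRT4 has the least precise value.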
